A study of Caenorhabditis elegans with 2 samples.

Results

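HLH-1 binding was examined beside all 261 nuclear microRNA genes of Caenorhabditis elegans, out of 46890 nuclear genes in the Ensembl release 115 annotation of WBcel235 (ce11). Every gene of that annotated biotype was taken, and the rule of membership uses no measured value. Each gene was given a window from 2000 bp upstream of its start to its end, and was called bound when the summit of a peak lay in that window. Chromatin immunoprecipitation with sequencing (ChIP-seq) had been performed on whole embryos of mixed stages and mixed sex, as 2 biological replicates of a single group. The strain, OP64, came from the CGC, carries unc-119(ed3) III and the transgene wgIs64, and makes HLH-1 fused to eGFP. Per the labels the fragments ranged from 150 to 350 bp, and the control library they mention was not analysed here. The peaks used were the list deposited as optimal past a threshold on the irreproducible discovery rate (IDR), which was derived from both replicates. A relaxed list of each replicate, in which background regions are kept among the peaks, served to compare the replicates. Of the 3254 IDR peaks, 2706 (83.2%) overlapped a peak in both relaxed lists, so not every IDR peak was found in each replicate.

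HLH-1 is the C. elegans counterpart of MyoD, a basic helix-loop-helix factor that drives muscle development. It binds E-boxes, whose pattern is CANNTG. MicroRNAs are made from hairpin precursors that are cut to mature RNAs, and these repress target messenger RNAs through the seed, bases 2 to 8 from the 5′ end. Worm microRNAs come from their own transcripts, from introns of protein-coding genes, or from clusters in which several hairpins share a primary transcript. Whole embryos mix body wall muscle with every other cell type, so a stronger peak can reflect more cells with binding or more binding per cell, which cannot be told apart. The authors gave each peak a score of unstated scale. It was used to rank peaks within a list, with rank 1 as the highest score.

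The mature sequences with the most bound genes per seed are shown first, because they define the groups used below. All were read from RefSeq's WBcel235 sequence at the mature coordinates of the annotation, are written 5′ to 3′ as RNA, and carry the seed in capitals. The mir-35 family shares the seed CACCGGG in its 3p arm. The genes mir-35 to mir-41 form a cluster, and mir-42 lies elsewhere on chromosome II.
mir-35-3p: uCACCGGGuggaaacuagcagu
mir-36-3p: uCACCGGGugaaaauucgcaug
mir-37-3p: uCACCGGGugaacacuugcagu
mir-38-3p: uCACCGGGagaaaaacuggagu
mir-39-3p: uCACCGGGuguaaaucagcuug
mir-40-3p: uCACCGGGuguacaucagcuaa
mir-41-3p: uCACCGGGugaaaaaucaccua
mir-42-3p: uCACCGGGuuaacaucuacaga

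The mir-51 family shares the seed ACCCGUA, which lies in the 5p arm of mir-51, mir-52 and mir-53 and in the 3p arm of mir-54, mir-55 and mir-56. Its genes lie at 3 places on chromosomes IV and X.
mir-51-5p: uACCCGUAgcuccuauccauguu
mir-52-5p: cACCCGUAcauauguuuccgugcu
mir-53-5p: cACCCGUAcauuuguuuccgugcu
mir-54-3p: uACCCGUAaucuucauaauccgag
mir-55-3p: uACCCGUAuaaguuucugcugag
mir-56-3p: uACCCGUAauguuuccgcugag

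The next sequences belong to single genes with strong peaks and to let-7, the heterochronic microRNA. The 3p arms of mir-58.1 and mir-80 share bases 2 to 7 of the seed, as members of the mir-58 family, which is related to bantam of Drosophila.
mir-67-3p: uCACAACCuccuagaaagaguaga
mir-231-3p: uAAGCUCGugaucaacaggcagaa
mir-58.1-3p: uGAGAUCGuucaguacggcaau
mir-80-3p: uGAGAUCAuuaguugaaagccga
let-7-5p: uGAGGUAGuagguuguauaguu

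The DNA at the summits is shown for the strongest peaks beside these single genes. Each window is the summit base with 50 bp on either side (101 bp), from RefSeq's WBcel235 sequence, written 5′ to 3′ on the strand of the microRNA gene. Capitals mark E-boxes, searched as 10 distinct hexamers on both strands, so that CAGTTG stands for a CAACTG on the other strand. The mir-67 window held CAGCTG centred 6.5 bp from the summit and the mir-58.1 window held CAACTG centred 13.5 bp from it. The mir-231 window held none of the 10 hexamers. The distal mir-80 window held CAGCTG at 2 places, 12.5 and 41.5 bp from the summit, and a CACATG that overlaps its own reverse complement.
mir-67 (rank 88, chrIII:5931624-5931724, minus strand): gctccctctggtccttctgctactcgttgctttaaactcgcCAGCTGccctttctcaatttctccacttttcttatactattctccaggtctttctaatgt
mir-58.1 (rank 147, chrIV:3231715-3231815, plus strand): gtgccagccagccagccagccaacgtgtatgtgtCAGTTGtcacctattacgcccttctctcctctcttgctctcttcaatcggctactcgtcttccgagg
mir-231 (rank 242, chrIII:7545325-7545425, minus strand): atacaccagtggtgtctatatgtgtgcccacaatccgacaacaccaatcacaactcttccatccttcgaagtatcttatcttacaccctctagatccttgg
mir-80 (rank 665, chrIII:8867155-8867255, minus strand): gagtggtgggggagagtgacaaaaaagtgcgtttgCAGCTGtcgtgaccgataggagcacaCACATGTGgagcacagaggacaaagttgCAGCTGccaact

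The windows at the families follow, because a single summit serves up to 7 genes there. CAAATG, written CATTTG on this strand, stood 21.5 bp from the summit shared by mir-35 to mir-41. The window shared by mir-54 to mir-56 and the window nearest to mir-52 held no E-box. The window nearest to mir-51 held CAAATG and CAAGTG, and the one nearest to mir-53 held CAACTG 30.5 bp from the summit.
mir-35 to mir-41 (rank 1312, chrII:11537305-11537405, plus strand): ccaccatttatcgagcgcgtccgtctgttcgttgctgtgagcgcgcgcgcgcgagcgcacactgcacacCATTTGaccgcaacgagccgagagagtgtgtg
mir-54 to mir-56 (rank 1139, chrX:13145250-13145350, minus strand): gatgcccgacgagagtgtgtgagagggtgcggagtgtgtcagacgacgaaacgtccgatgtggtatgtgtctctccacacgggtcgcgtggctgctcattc
mir-51 (rank 662, chrIV:11026097-11026197, minus strand): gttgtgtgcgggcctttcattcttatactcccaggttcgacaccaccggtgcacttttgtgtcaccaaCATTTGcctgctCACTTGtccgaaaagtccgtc
mir-53 (rank 3067, chrIV:11027754-11027854, minus strand): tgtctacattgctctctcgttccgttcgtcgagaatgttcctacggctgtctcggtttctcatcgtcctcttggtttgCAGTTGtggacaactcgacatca
mir-52 (rank 704, chrIV:14033893-14033993, plus strand): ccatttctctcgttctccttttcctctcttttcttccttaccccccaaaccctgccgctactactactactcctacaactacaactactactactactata

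Of the 261 microRNA genes, 42 were bound (16.1%, 95% Wilson interval 12.1 to 21.0). In windows of like length, which ran from 2000 bp upstream to 95 bp inside the gene (the median microRNA gene length), 2473 of 19973 protein-coding genes were bound (12.4%, 11.9 to 12.8). The ratio of the shares was 1.30, and the lower bound for microRNA genes lay just under the protein-coding share. Neighbouring microRNA genes share summits, so genes of the same strand with gaps of at most 2000 bp were also joined into loci. Of 222 loci, 32 were bound (14.4%, 10.4 to 19.6), which is nearer to the protein-coding share. The series has no second condition, so no difference between samples was tested, and intervals cover the counting of genes alone.

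The 42 genes were reached by 38 distinct summits, 1.17% of the 3254 in the IDR list, in 48 pairs of gene and summit. Their ranks ran from 7 to 3116 with a median of 1347. The median score was 62.9 at these summits, against 55.7 over the whole list. With the list cut into 4 equal parts from the highest scores down, 11, 12, 8 and 7 of the 38 summits fell in each. Summits beside microRNA genes were thus spread over the whole list, with 23 of them among its 1627 highest scores.

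**Figure D1:**
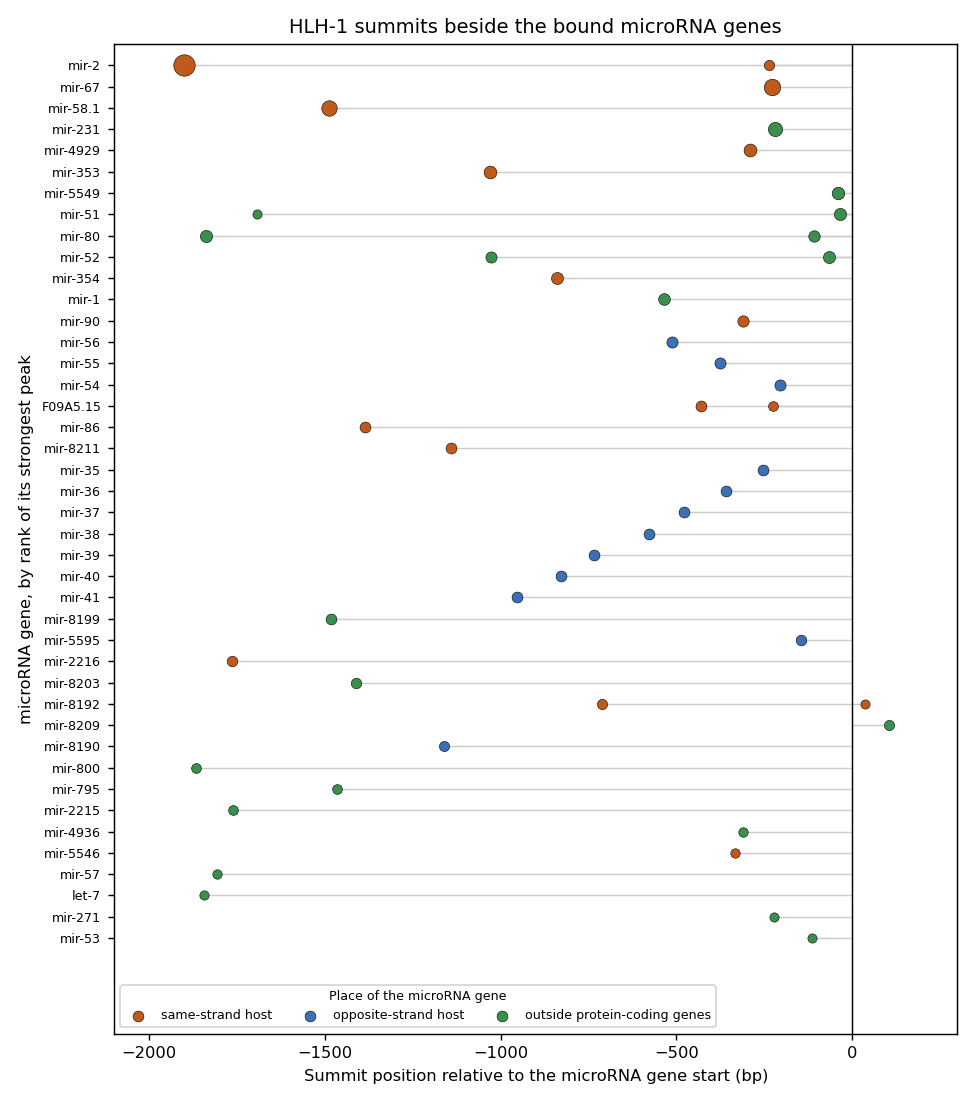
Position of each IDR summit (points, bp from the gene start, upstream negative) for the 42 bound microRNA genes, ordered by the rank of the strongest peak. Point area grows with the score, and colour gives whether the gene lies in a protein-coding gene of the same strand, of the opposite strand, or outside; mir-35 to mir-41 form a staircase because they share 1 summit, and the 2 summits at positive values (mir-8192 and mir-8209) lie inside the gene.

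The strongest peak beside a microRNA gene lay at mir-2, in an intron of ppfr-1, which encodes a regulatory subunit of protein phosphatase 4. Its summit stood 1902 bp upstream of mir-2 (chromosome I, 9374767), near the far limit of the window. The peak ranked 7 in the IDR list with a score of 361.4, and 15 and 8 in the lists of replicates 1 and 2 with scores of 40.56 and 316.2. Its summit window held CAGCTG centred 3.5 bp from the summit. A second, weaker peak stood 237 bp upstream of mir-2 (rank 1673, score 54.95, replicate ranks 898 and 2273). Its window held no E-box. The 2 summits lay 15215 and 16880 bp downstream of the ppfr-1 start. The gene mir-71, known for its role in lifespan, lies in the same host gene on the same strand and was not bound, with its nearest summit 4729 bp downstream of its start (rank 104, score 192.3).

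Next by score came mir-67, in an intron of zmp-1, a zinc metalloprotease gene of chromosome III. Its summit (5931674) stood 227 bp upstream and ranked 88 with a score of 199.8. In the replicates the peak ranked 28 and 124, with scores of 35.49 and 159.2. The same summit lay only 47 bp upstream of the start of another protein-coding gene, EGAP1.5. Beside mir-58.1, in an intron of Y67D8A.2 on chromosome IV, the summit (3231765) stood 1489 bp upstream with rank 147 and a score of 169.7. That peak ranked 338 and 138 in the replicates, with scores of 17.47 and 153.4. All of these peaks stood in the top 2% of both replicate lists. Nearer to mir-58.1, but outside its window, stood a weaker summit 460 bp downstream of its start (rank 455, score 108.1).

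The summit of mir-231 (chromosome III, 7545375) stood 220 bp upstream in intergenic sequence and ranked 242 with a score of 139.0. In replicates 1 and 2 it ranked 150 and 269, with scores of 23.43 and 119.4. The nearest protein-coding start was that of the Hox gene lin-39, which the summit preceded by 8743 bp. This strong peak is therefore far nearer to the microRNA than to any protein-coding start, although its window held no E-box. The gene mir-80 had 2 intergenic summits on chromosome III. The distal one, at 8867205, stood 1838 bp upstream (rank 665, score 91.26, replicate ranks 745 and 735), and the near one, at 8865476, stood 109 bp upstream (rank 975, score 74.49, replicate ranks 493 and 1407). A weaker replicate 1 peak, rank 1746, had its summit nearer to the near one, at 52 bp against 147 bp. The distal summit also lay 220 bp downstream of the start of mir-238, just 123 bp outside that gene's window.

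The muscle microRNA mir-1, which acts in body wall muscle and at the neuromuscular junction, was bound by a peak among the 1627 highest scores of the IDR list. Its peak spans 6173144 to 6173439 on chromosome I, with the summit 535 bp upstream in intergenic sequence. It ranked 854 in the IDR list with a score of 80.53, 990 in replicate 1 with a score of 10.83, and 1091 in replicate 2 with a score of 62.44. The replicate summits lay 107 bp (replicate 1) and 4 bp (replicate 2) from the pooled one. A weaker peak of replicate 1 also overlaps it, with rank 7435, a score of 5.007 and its summit 93 bp away. The nearest protein-coding start, that of T09B4.3, was 1903 bp away, so mir-1 was the nearer gene. No E-box of the 10 forms stood within 50 bp of the summit. The microRNA that shares the seed of mir-1, mir-796, was not bound, and its nearest summit lay 38866 bp upstream.

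The mir-35 family, which is needed for embryonic development, had 7 of its 8 genes bound, all through 1 summit. The cluster lies in an intron of Y62F5A.9 on the opposite strand, and the summit (chromosome II, 11537355) stood 253 bp upstream of mir-35, its first gene. The distances to the following genes were 358 bp for mir-36, 478 bp for mir-37, 578 bp for mir-38, 734 bp for mir-39, 829 bp for mir-40 and 953 bp for mir-41. The peak ranked 1312 with a score of 63.76, and 547 and 1840 in the replicates with scores of 14.41 and 46.20. The start of Y62F5A.9 was 1486 bp from the summit, which lies downstream of that start, so the first microRNA was nearer. The eighth member, mir-42, stands with mir-43 and another microRNA gene in a locus that was not bound, and its nearest summit was 14950 bp upstream.

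The mir-51 family, also needed in the embryo, had all 6 genes bound, through 5 summits at 3 places. The cluster of mir-54, mir-55 and mir-56 lies in F09A5.3 on the opposite strand of chromosome X. Its summit (13145300) stood 206 bp upstream of mir-54, 376 bp upstream of mir-55 and 513 bp upstream of mir-56, with rank 1139, a score of 69.04 and replicate ranks of 489 and 1283. At mir-51 on chromosome IV the summit (11026147) stood 35 bp upstream, with rank 662, a score of 91.34 and replicate ranks of 1235 and 583. At mir-52 the near summit (14033943) stood 65 bp upstream (rank 704, score 89.04, replicate ranks 2756 and 637). A second one (14032981) stood 1027 bp upstream (rank 1137, score 69.11, replicate ranks 297 and 1068). The replicate 1 summits lay 218 and 159 bp from these, outside the IDR peaks, and those of replicate 2 lay 1 and 0 bp away. The summit 113 bp upstream of mir-53 (11027804), which is also 1692 bp upstream of mir-51, was among the weakest of the IDR list, with rank 3067 and a score of 34.22. It ranked 21178 in replicate 1 with a score of 2.950, in the lower part of that list, and 2990 in replicate 2 with a score of 31.33. Of these peaks, the one of replicate 2 is among the top 3254 of its list and the one of replicate 1 is not.

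**Figure D2:**
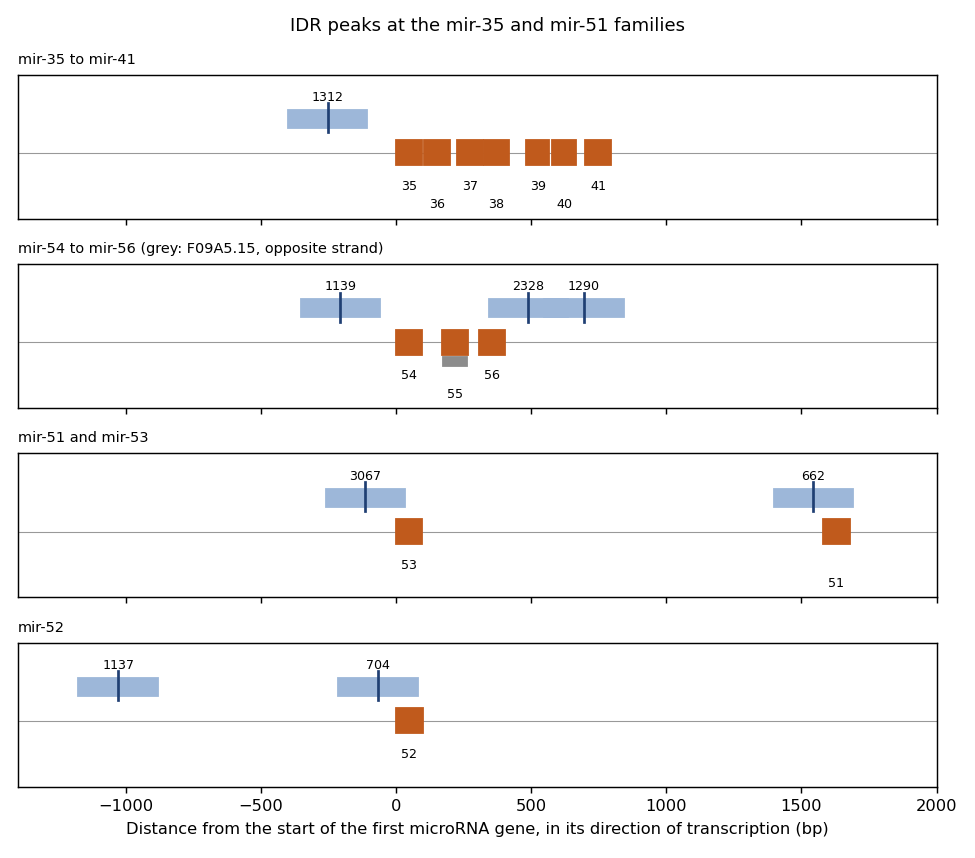
Maps of the loci of the mir-35 cluster and the mir-51 family, with microRNA genes as boxes labelled by number, IDR peaks as pale bars with a line at the summit, and the rank of each peak above it; the axis gives bp from the start of the first microRNA gene in its direction of transcription. A summit stands just before the first gene of each place, and the pair ranked 1290 and 2328 stands beyond mir-56, upstream of F09A5.15 on the other strand.

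A further annotated microRNA gene, F09A5.15 (mir-55b in Ensembl), lies opposite mir-55 in the same host gene F09A5.3, here on the host's strand. It had summits 430 bp upstream (rank 1290, score 64.35, with CAGCTG) and 226 bp upstream (rank 2328, score 43.60, with CAACTG). The highest-scoring overlapping peak was the same for both, with rank 90 in replicate 1 (its summit 104 and 100 bp from these) and rank 1524 in replicate 2 (37 and 241 bp). A weaker peak of replicate 2, with rank 3375, had its summit 10 bp from the second one. ChIP-seq does not mark strand, so peaks in this intron cannot be assigned to either side.

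In other families fewer genes were bound. When genes were grouped by bases 2 to 7 of a mature arm, the mir-58 family had 2 of 7 bound (mir-58.1 and mir-80) and the let-7 family 2 of 7 (let-7 and mir-795). Of the mir-58 family, mir-81 and mir-82 were not bound, and their nearest summit was the same one, 1641 bp downstream of mir-81 and 2641 bp downstream of mir-82 (rank 525). Of the mir-2 family 1 of 4 was bound. The group of mir-72 (6 genes), the group of mir-64 (5 genes) and the group of mir-44 (4 genes) had none. Members of a family often lie in 1 cluster and share summits, so these counts are not independent events.

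The summit assigned to let-7 (chromosome X, 14747165) stood 1844 bp upstream of a gene record that is 1732 bp long and so covers the primary transcript. It ranked 2863 with a score of 36.36, 534 in replicate 1 and 2924 in replicate 2, and its window held CAGCTG 37.5 bp from the summit. The start of the protein-coding gene C05G5.2 lay only 138 bp away. With the 99-nucleotide precursor as the gene, let-7 was not bound. The other let-7 relative among the bound genes, mir-795 (chromosome I), had a summit 1466 bp upstream with rank 2295. Its replicate ranks were 8159 and 1860, and the replicate 1 summit lay 257 bp away, outside the IDR peak. The start of the protein-coding gene F33E2.5 was nearer to the IDR summit than mir-795, at 752 bp. For mir-48, mir-241 and mir-84 the nearest summits lay 8586 bp downstream, 10360 bp downstream and 17945 bp upstream.

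Other microRNA genes known from development were not bound. The nearest summit to lin-4, the heterochronic founder of the class, lay 5423 bp downstream of its start, outside the window. For lsy-6, which sets the asymmetry of the ASE taste neurons, it lay 52844 bp downstream. For mir-124, a microRNA of ciliated sensory neurons, it lay 14377 bp upstream. For mir-34, which acts in stress responses, it lay 5784 bp upstream. The unbound genes closest to a call were mir-238 with a summit 123 bp outside the window, mir-243 (261 bp), mir-1824 (317 bp), mir-230 (468 bp) and mir-794 (587 bp). The bound gene nearest to the far limit was mir-2, at 1902 bp, although its near summit at 237 bp makes its call independent of that limit.

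By place in the annotation, 13 of 74 genes inside a protein-coding gene of the same strand were bound (17.6%, 10.6 to 27.8), in 12 host genes. Of genes on the opposite strand of a host, 12 of 32 were bound (37.5%, 22.9 to 54.7), and of those outside protein-coding genes 17 of 155 (11%, 6.96 to 16.9). The high share on the opposite strand came from the mir-35 cluster, with 7 genes, and from mir-54 to mir-56, with 3. Counted as loci, the shares were 12 of 69 on the same strand and 4 of 23 on the opposite strand (17.4% each), and 16 of 130 outside (12.3%). The difference between strands was absent in the count of loci.

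For a microRNA in a same-strand host, a summit can stand at the host's own start. That was the case for 3 of the 13 bound genes, taking 2000 bp upstream to 500 bp downstream of the host start. The summit near mir-353 stood 270 bp upstream of rpl-24.1 and 1029 bp upstream of the microRNA (rank 514, replicate ranks 410 and 582). For mir-354 it stood 228 bp upstream of rps-20 and 840 bp upstream of the microRNA (rank 734, replicate ranks 609 and 788). The start of another protein-coding gene, ekl-4, was nearer to that summit, at 169 bp. Both hosts, rpl-24.1 and rps-20, encode ribosomal proteins. For mir-2216 it stood 216 bp upstream of gmps-1, the GMP synthetase gene, and 1764 bp upstream of the microRNA (rank 1554, replicate ranks 9856 and 1518). In the other 10 genes the summits lay inside the host, from 1279 bp (mir-67 in zmp-1) to 16880 bp (mir-2 in ppfr-1) downstream of its start.

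Among the remaining intronic cases the strongest peak was that of mir-4929 in E01G4.3, 289 bp upstream, with rank 485, a score of 104.9 and replicate ranks of 188 and 551. The others on the host's strand were mir-90 in K01F9.2 (311 bp, rank 1022), and mir-86 and mir-8211 in Y56A3A.7, which share a summit 1386 and 1140 bp upstream (rank 1310). A stronger summit (rank 26, score 269.6) stood nearer to mir-86, 942 bp downstream of its start and so outside the window. Beside mir-8192, in the folliculin gene flcn-1, a summit stood 710 bp upstream (rank 1795) and another 38 bp inside the gene (rank 3116). Beside mir-5546, in arx-1, an Arp2/3 complex gene, it stood 334 bp upstream (rank 2724), although only 9 bp from the start of Y71F9AL.25. On the opposite strand of their hosts were mir-5595 in nurf-1, a chromatin remodelling gene (144 bp, rank 1497), and mir-8190 in the cadherin gene hmr-1 (1161 bp, rank 1911).

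Outside protein-coding genes, mir-5549 had a summit 40 bp upstream with rank 561 and replicate ranks of 452 and 640. The same summit lay 128 bp from the start of rfc-4, a replication factor C gene. The summit of mir-8209 lay 106 bp inside its gene (rank 1877) and that of mir-8199, 1482 bp upstream, fell in a coding exon of C40A11.4 (rank 1382). The others were mir-8203 (1410 bp upstream, rank 1596), mir-800 (1866 bp, rank 2248), mir-2215 (1761 bp, rank 2301), mir-4936 (311 bp, rank 2669), mir-57 (1807 bp, rank 2745) and mir-271 (221 bp, rank 2947). For mir-271 the summit stood 168 bp upstream of unc-78, which encodes an actin-interacting protein, and for mir-800 it stood 148 bp upstream of ife-2, a translation initiation factor gene. Both of these summits stand nearer to a protein-coding start than to the microRNA gene. The same holds for mir-8203 (60 bp from the start of pcyt-2.2) and mir-4936 (265 bp from that of nduf-9). It also holds for mir-57 (1375 bp from that of T09A5.5) and mir-8199 (1389 bp from that of C40A11.4).

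Of the 48 pairs of gene and summit, 46 lay upstream of the gene and 2 inside it. The window fixes most of this split, since 2000 of its 2095 bp lie upstream at the median gene length. The median upstream distance was 556 bp. Within 250 bp upstream lay 12 pairs, from there to 500 bp 9, to 1000 bp 8, to 1500 bp 9 and to 2000 bp 8. A summit within 500 bp of the start was found for 22 of the 42 bound genes. Per 100 genes, the 250 bp just upstream held 4.60 summits for microRNA genes, 4.50 for the first genes of microRNA loci and 4.03 for protein-coding genes. From 250 to 500 bp downstream the values were 2.30 for microRNA genes and 0.275 for protein-coding genes, where the downstream side of a microRNA gene lies mostly beyond its end and that of a protein-coding gene mostly inside it.

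**Figure D3:**
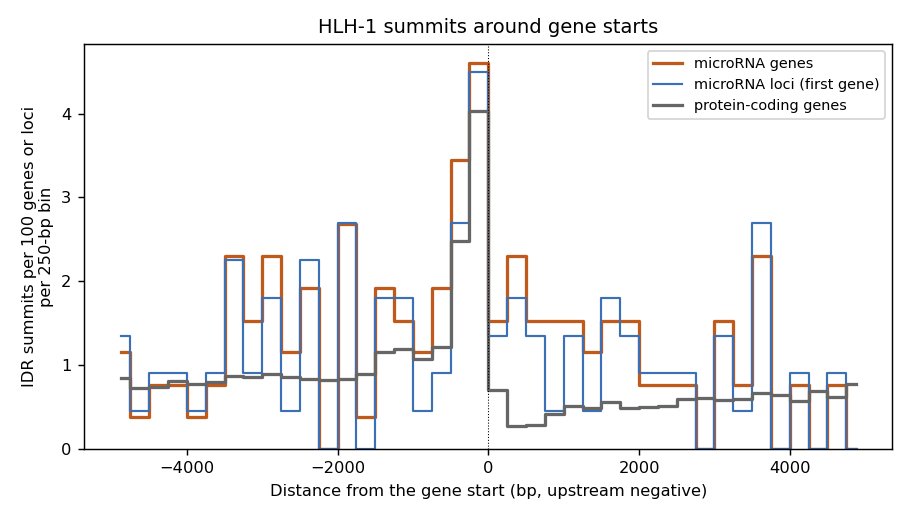
IDR summits per 100 genes or loci in 250 bp bins (y axis) by distance from the gene start (x axis, bp, upstream negative) for microRNA genes, for the first gene of each microRNA locus and for protein-coding genes. All lines peak in the bin just upstream of the start, at 4.60, 4.50 and 4.03, and the microRNA lines are jagged because a bin holds at most 12 microRNA pairs.

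Summits beside microRNA genes stood farther from protein-coding starts than the list as a whole, with a median distance of 2713 bp against 1032 bp for all IDR summits. Of the 38, 25 were nearer to a microRNA start than to any protein-coding start (65.8%, 49.9 to 78.8). All 38 were chosen for lying in a microRNA window, which favours this share, so it does not assign the peaks to microRNA genes. Introns held 16 of the 38 (42.1%, 27.9 to 57.8), against 25% of all IDR summits, and intergenic sequence held 21 (55.3%, 39.7 to 69.9), against 67.0%. A coding exon held 1. The windows of microRNA genes inside a host gene can lie wholly or partly in its introns, so no test of these shares was made. In the IDR list 2957 of 3254 peaks share a width of 296 bp, as do 35 of the 38, so that the summit of nearly every peak is its centre.

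Other classes of small and non-coding genes gave shares on both sides of that of microRNA genes, with windows from 2000 bp upstream to the gene end. Against 16.1% for microRNA genes, a summit was found for 123 of 346 snoRNA genes (35.5%), 132 of 612 tRNA genes (21.6%) and 38 of 194 lincRNA genes (19.6%). Of the class annotated as ncRNA 14.7% were bound, of snRNA genes 11.6% and of antisense RNA genes 7%. The piRNA genes, at 3.04%, and the pseudogenes, at 2.44%, were seldom bound. Protein-coding genes reached 15.1% when their window ran to the gene end.

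**Figure D4:**
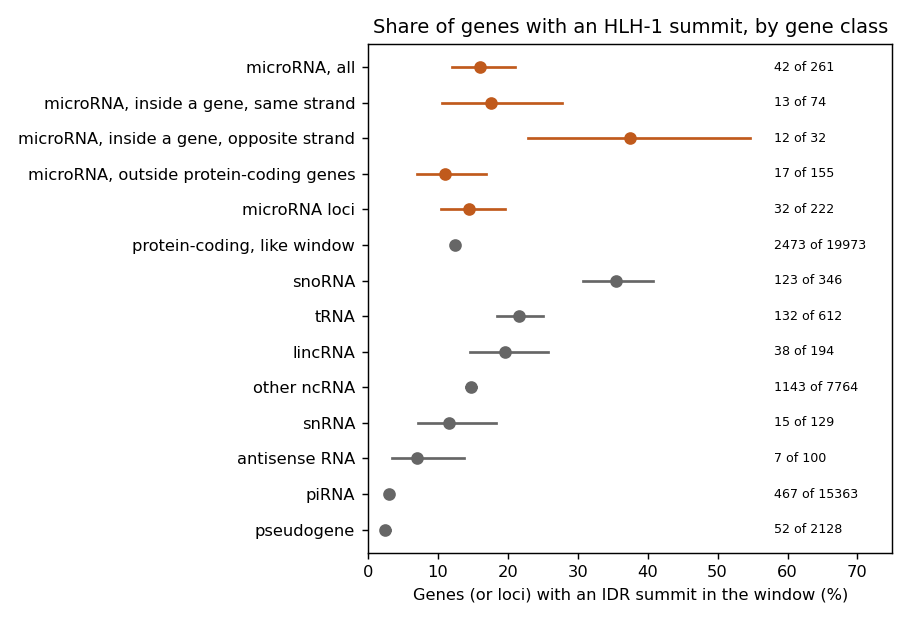
Share of genes with an IDR summit in the window (x axis, %) for microRNA genes, their subsets by place, microRNA loci, and other gene classes; points are shares, bars are 95% Wilson intervals that cover counting of genes alone, and counts stand at the right. MicroRNA genes (16.1%) lie above protein-coding genes in a window of like length (12.4%) and below tRNA (21.6%) and snoRNA genes (35.5%).

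The replicates were compared on as many top peaks by score as the IDR list holds (3254). Replicate 1 gave 42 of 261 microRNA genes with a summit, against 9.25% of protein-coding genes. Replicate 2 gave 43 of 261, against 12.4% of protein-coding genes. Both replicates gave 34 genes, and all 34 were bound in the IDR list, of whose 42 genes they make up 81.0%. This count does not require the same site in both replicates, and the IDR list was itself derived from their lists. With top peaks that overlap the IDR peak in both replicates, the count was 32 of 42. No gene with a top summit in both replicates was missing from the IDR list. The top peaks of replicate 2 covered all 42. In the whole relaxed lists, which include background, 144 genes had a summit in each replicate (55.2%), against 50.3% of protein-coding genes in replicate 1 and 51.9% in replicate 2.

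Of the 38 summits, 36 had an overlapping peak in both relaxed lists (94.7%, 82.7 to 98.5), against 83.2% of all IDR peaks. The 2 summits that lacked one in replicate 1 belonged to mir-8190 and mir-57. Top peaks in both replicates were found at 27 of the 38 (71.1%, 55.2 to 83.0), against 48.0% of all IDR peaks. These counts take the highest-scoring overlapping peak of each replicate, and with the peak of nearest summit they were 25 of 38 (65.8%), against 46.6% of all IDR peaks. In the 4 parts of the list from the highest scores down, the counts were 11 of 11, 10 of 12, 4 of 8 and 2 of 7 beside microRNA genes, against 85.7%, 58%, 36.4% and 12% of all IDR peaks. Replicate 1 set this count, since 71.1% of the 38 had a top peak in replicate 1 and 97.4% in replicate 2. The median rank of the 38 was 812.0 in replicate 1 and 1487 in replicate 2, over those with a peak. Pooled and replicate summits differed by a median of 38.5 bp in replicate 1 and 8 bp in replicate 2.

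**Figure D5:**
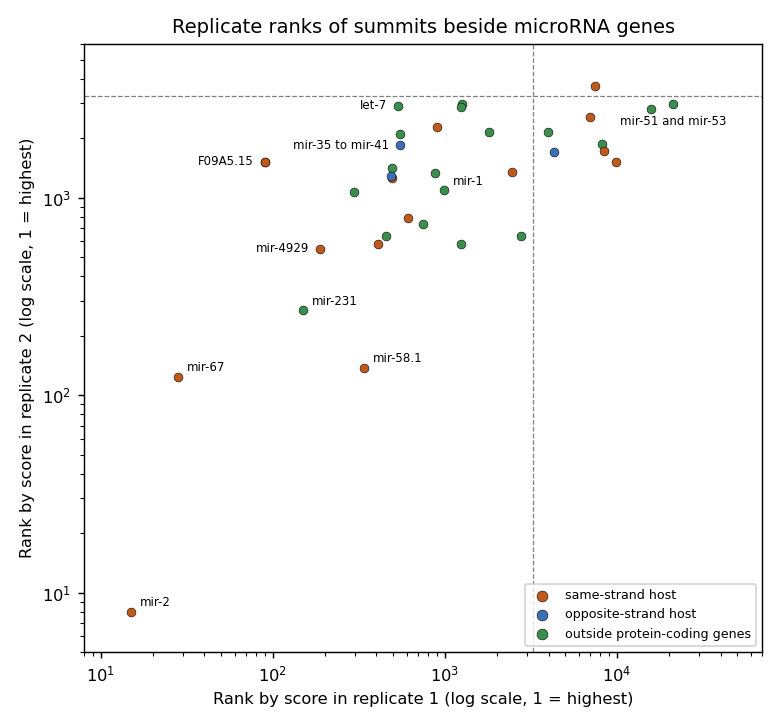
Rank by score (1 is highest, log axes) of the highest-scoring overlapping peak in replicate 1 (x axis) and replicate 2 (y axis) at each IDR summit beside a microRNA gene, coloured by the place of the gene; dashed lines mark rank 3254. The 27 points left of the vertical line and under the horizontal one are top peaks in both replicates, mir-2 and mir-67 stand at the strong end, and the summit shared by mir-51 and mir-53 lies far to the right; 2 summits with no peak in replicate 1 are not drawn, and the 2 of F09A5.15 coincide.

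E-box shares beside microRNA genes lay within counting error of those of the whole list. CAGCTG stood within 50 bp of 7 of the 38 summits (18.4%, 9.22 to 33.4), against 15.2% of all IDR summits. The 7 were the distal summit of mir-2, the summit of mir-67, the distal summit of mir-80, a summit of F09A5.15 and the summits of mir-8199, mir-2215 and let-7. CAACTG was found at 5 (13.2% against 18.0%), CACCTG at 1 (2.63% against 9.43%), and any of these 3 at 13 (34.2%, 21.2 to 50.1, against 38.8%). Of the other forms, CAAATG stood at 6 summits (15.8% against 9.68%), CAAGTG at 5 (13.2% against 9.34%), CACATG at 2 (5.26% against 7.28%) and CACGTG likewise at 2 (5.26% against 2.95%). CAATTG was found at none of the 38 (5.07% of all IDR summits), and neither were CAGATG (7.59% of all) nor CATATG (2.92% of all). Any of the 10 forms stood at 20 of 38 (52.6%, 37.3 to 67.5), against 63.4%. For each of the 10 forms, the 95% interval of the share beside microRNA genes holds the share of the whole list. A match is a description of the sequence, not a shown site.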

How the data were processed

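The measurements were peaks of ChIP-seq against an eGFP fusion of HLH-1 in 2 replicate embryo samples. Per the deposited manifest, each replicate and the pooled alignments have a relaxed list (28959, 30000 and 25321 peaks for replicate 1, replicate 2 and the pool), and the IDR list (3254 peaks) was derived from them. The score of each peak is the authors' deposited value, on a scale that is not stated. Its highest value was 165.7 in replicate 1 and 806.3 in replicate 2, so scores of different lists were not compared. Not given in the sources used here are the aligner, the peak caller, the IDR threshold and the read depth, which leaves the precision of a score unknown. Lists on ce10 were not used.

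From these files, summits (peak start plus offset) on ce11 were placed against genes with Python 3.11.15 and NumPy 2.4.6. Names came from RefSeq by WormBase ID (261 of 261 matched, of which 45 differ from the Ensembl name). Replicate peaks were matched by an overlap of at least 1 bp, taking the highest-scoring one. In replicate 2, 25 relaxed peaks were not nuclear, 9 of them among its top peaks. The code was tested on simulated data, and 20 of 20 runs recovered every planted gene and motif. Planted summits were placed with the same window definition as the search, so the runs do not check that definition. Reading of summits from the deposited lists was not tested either. The planted motif was CAGCTG, which reads the same on both strands. Genes named are all bound microRNA genes, a list of known microRNAs whether bound or not, the 5 unbound ones nearest to a call, and any with top summits in both replicates alone. The class of genes studied and the lists were chosen with earlier results of these data known, and membership in the class rests on biotype alone. The native hlh-1 gene lies 146667 bp from the nearest microRNA gene (mir-1830) and 2381245 bp from the nearest bound one (mir-8199).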

Additional observations from a re-analysis of the deposited data

How the results depend on the processing

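With 1 group there is no fit across samples, and limits are those of counting. Window length set the counts. With 500 bp upstream, 22 genes and 20 summits were found, with 1000 bp 23 summits, and with 5000 bp 66 summits. Among the 1627 highest scores of the IDR list 23 summits remained and the ratio of the microRNA share to the protein-coding share was 1.92. With the top peaks of a single replicate, the ratio ran from 1.32 (replicate 2 alone) to 1.74 (replicate 1 alone), the gene count from 42 to 43, the summits from 37 to 39, the CAGCTG share from 13.5% to 15.4% and the share with CAGCTG or either E-box grouped with it from 25.6% to 27.0%. Within 25 bp of the summit these shares were 7.89% for CAGCTG (9.93% of all IDR summits) and 13.2% for any of the 3 (26.2% of all). With 1000 bp, 8 genes in same-strand hosts were bound. Causes of these shifts were not tested, beyond fewer or more bases and peaks searched. Over the alternatives with windows of like length and lists of top or IDR peaks, the ratio ran from 1.13 to 1.92. The shares were closer with protein-coding windows to the gene end (16.1% of microRNA genes against 15.1%) and in the whole relaxed lists (55.2% against 50.3% and 51.9%). Precursor records, chosen after seeing the data, gave 41 genes. Of the 42 bound genes, 40 had a peak in both replicates, 33 with an overlap of at least 50% of each peak, 32 with top peaks only, and 31 with top peaks by nearest summit, an alternative also chosen after seeing the data. No paired analysis was possible because the samples form 1 group and no groups were compared.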

Other observations

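By count of genes, the bound share of microRNA genes ran from 0% on chromosome V to 29.6% on chromosome III. On chromosome II 14 of 49 were bound (28.6%, interval 17.8 to 42.4), 7 of them in the mir-35 cluster, against 12.4% of protein-coding genes there, and on chromosome III 8 of 27 (29.6%, 15.9 to 48.5), against 17.2%. On chromosome I 8 of 33 were bound (24.2%, 12.8 to 41.0), against 15.1%. Chromosome X had 8 of 74 bound (10.8%, 5.58 to 19.9), against 15.2%. Chromosome IV had 4 of 50 bound (8%, 3.15 to 18.8), against 11.7%. On chromosome V 0 of 28 were bound, which allows a share of up to 12.1% by the Wilson interval, against 7.15% of protein-coding genes. Counted as loci, the shares were 8 of 41 on II, 7 of 22 on III, 8 of 32 on I, 6 of 57 on X, 3 of 46 on IV and 0 of 24 on V.

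MicroRNA genes with a mir number under 100, which include many of the conserved families, were bound in 21 of 56 cases (37.5%, 26.0 to 50.6). Those numbered from 100 and under 1000 were bound in 6 of 76 (7.89%, 3.67 to 16.2). Of those numbered 1000 or more, 13 of 122 were bound (10.7%, 6.33 to 17.4), and of those without a mir number 2 of 7 (28.6%, 8.22 to 64.1). Over all microRNA genes the share was 16.1%, and over protein-coding genes in windows of like length 12.4%. The 21 genes numbered under 100 include mir-35 to mir-41, which share a summit, and mir-54 to mir-56, which share another. Counted as loci, 12 of 42 with a number under 100 were bound (28.6%, 17.2 to 43.6), 6 of 71 of the middle class (8.45%) and 13 of 110 of the highest (11.8%). These classes were chosen after the values were seen, so the difference was not tested.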
